A study of Mus musculus with 16 samples.

Results

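Common monocyte progenitors (cMoPs) from control mice were compared with macrophage and dendritic cell progenitors (MDPs) from control mice. The comparison took every array whose source name gives one of these cell types from Dnmt1+/+ animals: 4 control cMoP arrays and 4 control MDP arrays, which makes 8 of the 16 arrays of the series. The tested features were all 22180 genes that the array annotation names with a single symbol, each read from its brightest probe set. Both populations came from bone marrow of mice aged 8 to 12 weeks and were sorted by flow cytometry as lineage-negative cells with high c-Kit and with CD115, the receptor for colony-stimulating factor 1, and without CD11b. Ly-6C was present on the cMoPs and absent on the MDPs. Dnmt1+/+ animals carry only normal alleles of Dnmt1, the maintenance DNA methyltransferase. In one comparison they are set against the other 8 arrays, 4 of c/chip cMoPs and 4 of c/chip MDPs, from Dnmt1c/chip mice of the same age, a genotype known for reduced Dnmt1 activity. Each control cMoP array has a title with both genotypes in it; its source name and its genotype label give Dnmt1+/+ and were followed. The labels give neither the number of animals behind an array nor their sex or strain, so a p-value here takes in the spread among these arrays alone, which may be technical. A bulk sample of sorted cells cannot tell fewer cells of a type from less RNA per cell.

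The MDP is a bone marrow progenitor that can give rise to monocytes, macrophages and dendritic cells. The cMoP lies downstream of it, keeps monocyte and macrophage potential and has lost the potential for dendritic cells. Along this path, Flt3, the receptor that carries dendritic cell development, gives way to genes of the monocyte and granule programmes, and the transcription factors PU.1 and IRF8 act at both stages.

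Values are log2 levels as the authors' RMA procedure left them, with medians of 3.51 to 3.62 on the 8 control arrays. A level near these medians is close to the lower end of what the array resolves, and where a group averages below them its difference is a lower limit. Over the genes above the median level, the first principal component of the 8 arrays held 42.0% of the variance and separated control cMoPs (25.93 to 30.38) from control MDPs (−35.02 to −21.71). The second held 15%, and control cMoP replicate 2 stood apart on it at −38.01, against 6.39 to 18.5 for the other control cMoPs and −13.27 to 11.27 for the control MDPs. Replicates 1 and 2 of both cell types also differed from replicates 3 and 4 in Xist, the X-inactivation transcript, at 10.79 to 11.36 against 3.58 to 4.29. The mean of the 4 measured genes of a list of Xist, Tsix and Y-linked genes ran the other way, at 4.67 to 5.14 against 6.25 to 6.33. Whether the 2 sets of replicates differ in the sex of the animals was not tested. The counts are therefore also given within each of these sets of replicates.

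Ly-6C transcripts were higher in control cMoPs, but that of Ly6c2 was abundant in control MDPs too. Ly6c2, one of the genes of Ly-6C, was at 12.07, 12.05, 12.07 and 11.97 in control cMoPs, against 10.41, 10.42, 9.90 and 10.09 in control MDPs. Ly6c1 averaged 5.21 ± 0.62 in control cMoPs and 3.19 ± 0.43 in control MDPs (SD, n = 4 each, as for all SDs below). Both genes were higher on every cMoP array (two-sided exact permutation p = 0.0286 each, the smallest that 70 arrangements allow), which restates the gate and is no result. Ly6c2 was nevertheless well above the array medians on every control MDP array, and Itgam, whose protein was gated out of both populations, averaged 6.12 ± 0.31 in control cMoPs and 5.98 ± 0.48 in control MDPs. The gates that both populations share left no difference that passed: Kit was 0.36 lower (exact p = 0.114), Csf1r, the CD115 gene, 0.20 higher (exact p = 0.114) and Itgam, the CD11b gene, 0.14 higher (exact p = 0.686) on the log2 scale. Dnmt1 averaged 9.78 ± 0.09 in control cMoPs and 9.86 ± 0.07 in control MDPs (exact p = 0.2). Among monocyte markers, Ccr2, the receptor that takes monocytes out of the marrow, lay at 10.17 to 10.48 in control cMoPs and 10.37 to 10.58 in control MDPs. Ms4a6c lay at 9.26 to 9.46 and 9.02 to 9.29, so both transcripts were high in both populations. Fcgr1, the high-affinity IgG receptor of mature monocytes, had means below the array medians in both. The defining markers of B, T and NK cells that were measured (Cd79a, Cd3e, Cd3g, Ncr1 and Klrb1c) did not exceed 5.08 on any control array. Other genes of the lymphoid and NK cell lists were not low. Ighm averaged 10.49 ± 0.13 in control cMoPs and 10.82 ± 0.15 in control MDPs, Cd79b 7.90 and 6.82, and Nkg7 10.57 and 8.24.

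Of the 22180 genes, 631 were higher and 380 were lower in control cMoPs than in control MDPs (limma, Benjamini-Hochberg adjusted p under 0.05), which is 4.56% in all, 2.84% higher and 1.71% lower. Among the 1011 genes, 962 had no overlap between the 4 cMoP and the 4 MDP arrays, against 10.8% of all genes (6.03% higher and 4.76% lower). A change of at least 2-fold was called for 295 higher genes (1.33%) and 184 lower genes (0.83%), and of at least 4-fold for 71 and 46. The median of the called differences was 0.96 among the higher and −0.98 among the lower genes, and the median over all genes was −0.003. Without control cMoP replicate 1 the count of lower genes was 247. Within replicates 1 and 2 alone, 87 genes were higher and 86 lower, and within replicates 3 and 4 alone, 148 and 45. With the 2 sets of replicates as a term in a fit of the 8 control arrays the counts were 512 and 324. A test of whether the cMoP minus MDP difference itself differed between the sets called 0 genes with limma, with 1403 at an unadjusted p under 0.05.

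**Figure D1:**
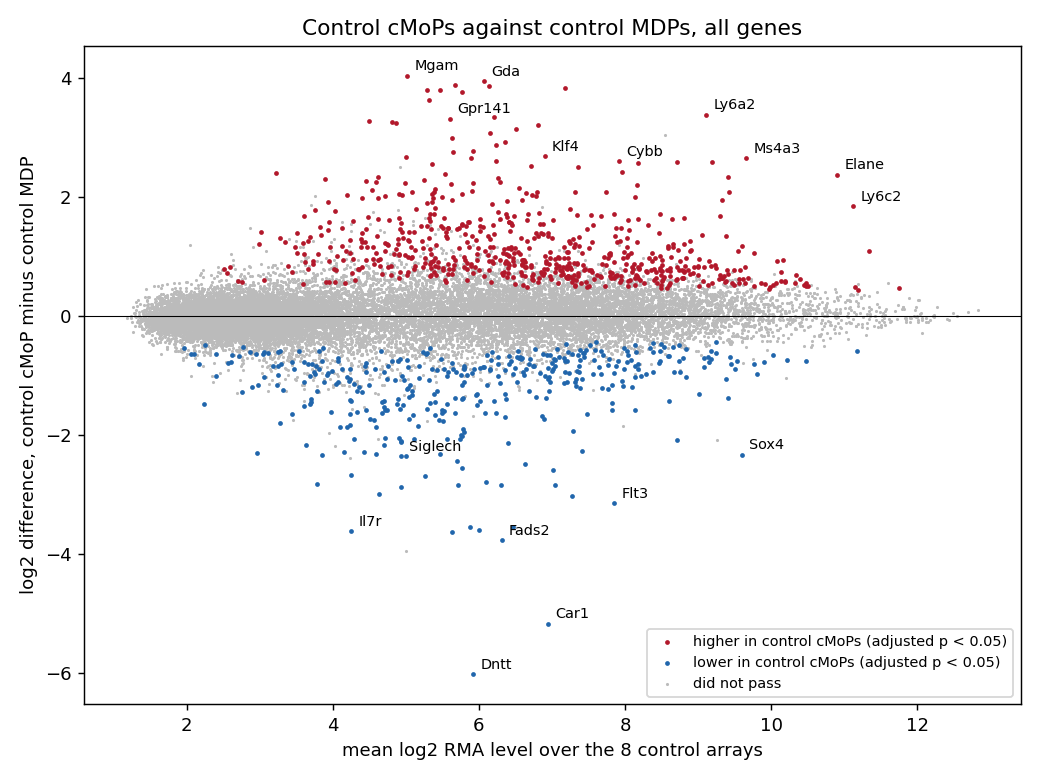
Difference between control cMoPs and control MDPs (vertical axis, log2 scale, cMoP minus MDP) against the mean log2 level over the 8 control arrays (horizontal axis), 1 point per gene. The 631 higher genes are red and the 380 lower genes blue. The largest rises are of genes with mid-range levels such as Mgam and Gda, and the largest falls are those of Dntt and Car1.

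Genes were ranked among those that passed the test without overlap between the arrays, passing over predicted and clone-named transcripts such as Gm21370 (3.82) and AB124611 (3.20). Mgam, the maltase-glucoamylase gene, was at 7.31, 6.99, 6.58 and 7.25 in control cMoPs, against 3.21, 2.79, 3.19 and 2.81 in control MDPs (difference 4.03, SE 0.392, adjusted p = 6.49e-06). Trem3, an activating receptor gene of mouse myeloid cells, was at 7.41, 6.5, 7.52 and 7.31 in control cMoPs, against 3.53, 3.57, 3.37 and 3.13 in control MDPs (difference 3.79, SE 0.306, adjusted p = 9.59e-07). The arrays of the 2 populations lay far apart for both genes, and the MDP means are below the array medians. Clec5a, a C-type lectin receptor gene of myeloid cells, averaged 7.87 ± 0.13 in control cMoPs and 4.54 ± 0.30 in control MDPs (10.1-fold, adjusted p = 4.46e-06). Ly6a2, a gene of the Ly6 family, averaged 10.8 ± 0.03 and 7.42 ± 0.68 (10.4-fold, adjusted p = 3.53e-07). It neighbours Ly6c1 and Ly6c2, its paralogs, and how far the probes of the 3 genes share signal was not tested. Fcnb, which encodes the secreted recognition protein ficolin B, averaged 7.37 ± 0.22 and 3.57 ± 1.14 (13.9-fold, adjusted p = 0.00494), with MDP values spread between 2.69 and 5.16.

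The other genes among the 15 largest rises ranked in this way differed by 3.13 to 3.94. Enzyme genes among them were Gda (guanine deaminase, 3.94), Sgms2 (sphingomyelin synthase, 3.86), Far2 (fatty acyl-CoA reductase, 3.76), B4galt6 (a galactosyltransferase of glycosphingolipid synthesis, 3.13), Aoah (3.63) and Rnase2a (3.27). Aoah encodes the hydrolase that removes acyl chains from bacterial lipopolysaccharide, and Rnase2a a ribonuclease of the eosinophil-associated family. Receptor and membrane protein genes were Mcemp1 (3.88), Gpr141 (an orphan G protein-coupled receptor, 3.31), Olr1 (the receptor for oxidised low-density lipoprotein, 3.25) and Clec4a2 (an inhibitory C-type lectin, 3.24). MDP means below the array medians make the differences of Aoah, Rnase2a, Olr1 and Clec4a2 lower limits.

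The largest falls, ranked in the same way, were led by Dntt and Car1. Dntt, which encodes the polymerase that adds untemplated bases at antigen receptor joints, was at 3.15, 2.54, 2.91 and 3.04 in control cMoPs, against 9.01, 9.97, 8.26 and 8.50 in control MDPs (difference −6.03, SE 0.409, adjusted p = 1.63e-07). Its control cMoP values lay below the array medians, and its control MDP values were high on every array. Car1, a carbonic anhydrase gene of early erythroid and multipotent progenitors, was at 3.89, 4.58, 4.36 and 4.57 in control cMoPs, against 9.27, 10.22, 9.19 and 9.43 in control MDPs (difference −5.18, SE 0.538, adjusted p = 1.26e-05). Flt3 was at 5.86, 6.18, 6.66 and 6.44 in control cMoPs, against 9.49, 9.66, 9.21 and 9.36 in control MDPs (difference −3.15, SE 0.236, adjusted p = 3.98e-07). The groups did not overlap for any of these genes, and the cMoP level of Flt3 remained above the array medians.

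Among the 15 largest falls that passed the test were also Fads2 (a fatty acid desaturase, −3.78), Ctla2a (a cysteine protease inhibitor of mouse, −3.63), Il7r (the interleukin 7 receptor, −3.62), Car2 (−3.60), Emp1 (an epithelial membrane protein, −3.56), Bpifc (−3.55), Adgrg1 (an adhesion receptor of stem cells, −3.04), Cpa3 (a mast cell carboxypeptidase, −3.0), Cmah (the hydroxylase of sialic acid, −2.88), Tspan13 (a tetraspanin, −2.84), Gfi1b (a repressor of erythroid and megakaryocytic cells, −2.84) and Angpt1 (a ligand of the receptor Tek, −2.84). A second probe set of Emp1 gave −2.49 and one of Angpt1 −1.45, both past the threshold in a fit of all probe sets. Car2 in control cMoP replicate 2 was at 2.45, against 4.59 to 4.99 on the other control cMoP arrays.

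**Figure D2:**
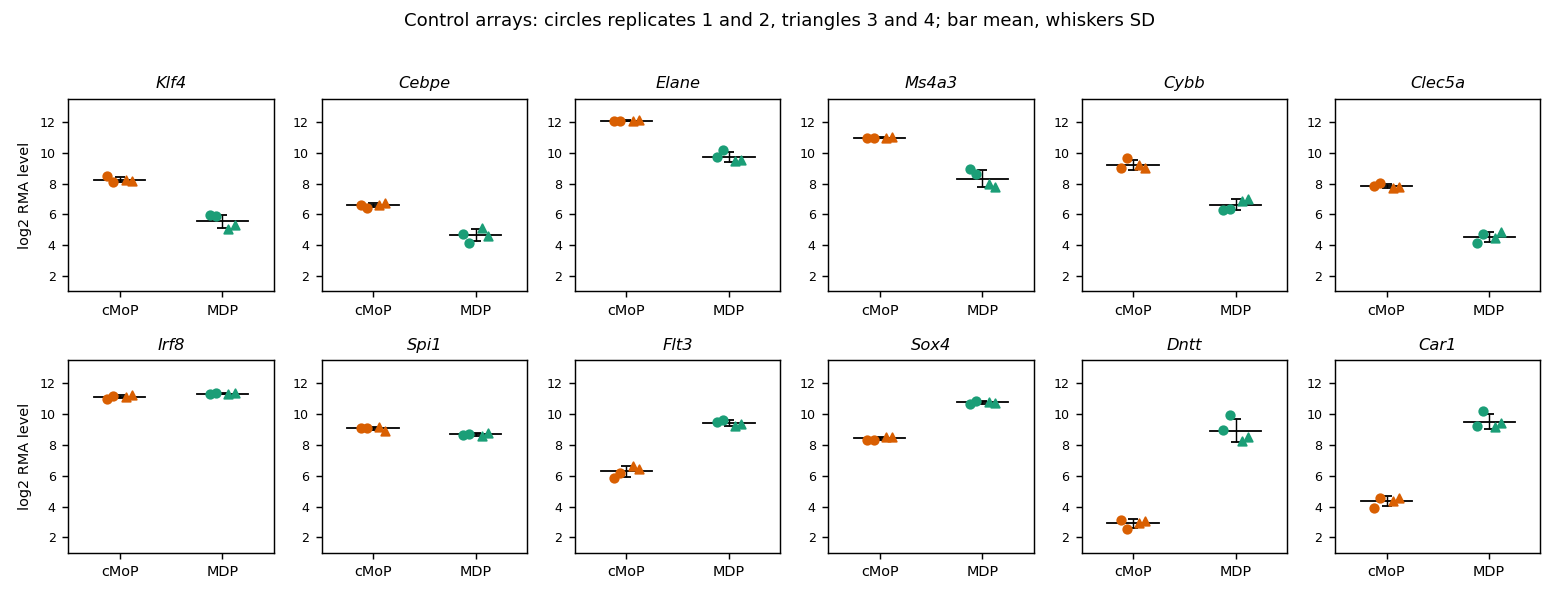
Log2 levels of 12 genes on the control arrays, with cMoPs left and MDPs right in each panel. Circles are replicates 1 and 2, triangles replicates 3 and 4, the bar is the mean and the whiskers the SD of 4 arrays. Klf4, Cebpe, Elane, Ms4a3, Cybb and Clec5a were higher in cMoPs without overlap, Flt3, Sox4, Dntt and Car1 lower without overlap, and Irf8 and Spi1 differed by 0.20 and 0.38.

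Transcription factors of myeloid cells split between the directions. Of 27 on the array, 3 rose, 5 fell and 19 missed the threshold, with a median difference of −0.20. The share called was 29.6%, against 4.56% of all genes, the share to set beside the counts of every list below. Klf4, a factor needed for monocyte differentiation, was at 8.48, 8.12, 8.23 and 8.15 in control cMoPs, against 5.95, 5.90, 5.08 and 5.33 in control MDPs (difference 2.68, SE 0.287, adjusted p = 1.57e-05). Cebpe, a C/EBP family factor of granule gene expression, averaged 6.60 ± 0.14 and 4.65 ± 0.38 (3.86-fold, adjusted p = 2.37e-04). Cebpb, the family member tied to monocyte survival, averaged 7.12 ± 0.20 and 6.30 ± 0.22 (difference 0.82, adjusted p = 0.00684). All of their control cMoP arrays lay above all control MDP arrays.

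The lower factors were Bcl11a (−1.18) and Tcf4 (−1.17), both of lymphoid and plasmacytoid dendritic cells, Id3 (−0.98), Hhex (−0.90) and Runx1 (−0.63). Bcl11a averaged 7.38 ± 0.05 in control cMoPs and 8.56 ± 0.27 in control MDPs (adjusted p = 2.53e-04), and a second, dimmer probe set gave −1.02 without passing. Leaving out 1 control array at a time ended the call of Id3 in 6 fits of 8, of Hhex in 6 and of Runx1 in 3, at adjusted p of at most 0.156, 0.133 and 0.0674. The count of lower factors was 2 or 3 without control cMoP replicates 1, 3 or 4 or control MDP replicates 2 or 4. Irf8, a factor that acts at both stages, averaged 11.14 ± 0.10 in control cMoPs and 11.34 ± 0.04 in control MDPs (difference −0.20, SE 0.128, adjusted p = 0.496). Spi1, which encodes PU.1, averaged 9.08 ± 0.10 and 8.70 ± 0.10 (difference 0.38, SE 0.143, adjusted p = 0.173). The arrays of the populations did not overlap for either gene, although neither difference passed. Cebpa (0.25, SE 0.186), Cebpd (0.70, SE 0.221) and Gfi1 (0.67, SE 0.224), a repressor of the granulocyte lineage, did not pass either.

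Receptors for growth factors and cytokines changed in both directions as well. Of 26 measured, 4 were higher and 6 lower (38.5% called, against 4.56% of all genes), with a median difference of −0.15. Csf2ra, the alpha chain of the GM-CSF receptor, averaged 7.65 ± 0.18 in control cMoPs and 6.34 ± 0.45 in control MDPs (difference 1.30, SE 0.183, adjusted p = 2.67e-04). Ifngr1, a chain of the interferon gamma receptor, averaged 9.44 ± 0.12 and 8.35 ± 0.36 (difference 1.08, SE 0.154, adjusted p = 2.98e-04). The tumour necrosis factor receptor genes Tnfrsf1b and Tnfrsf1a were 0.74 and 0.69 higher. Lower receptors besides Il7r and Flt3 were Il1r1 (the interleukin 1 receptor, −1.69), Il4ra (−0.95), Epor (the erythropoietin receptor, −0.90) and Il6st (the signalling chain gp130, −0.78). Il7r was at 2.61, 2.3, 2.21 and 2.64 in control cMoPs, against 6.44, 7.35, 4.85 and 5.61 in control MDPs. Every control cMoP value was below the array medians, and the MDP values were higher in replicates 1 and 2 than in 3 and 4. The receptors for M-CSF (Csf1r), G-CSF (Csf3r, 0.53, SE 0.187) and interleukin 6 (Il6ra, 0.36, SE 0.197), and Csf2rb, the shared beta chain (0.56, SE 0.259), did not pass. Leaving out 1 control array at a time ended the call of Tnfrsf1b in 6 fits of 8, of Il4ra in 5 and of Epor in 7, at adjusted p of at most 0.116, 0.0749 and 0.139.

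Many genes of stem cells and early progenitors were lower in control cMoPs. Of 32 on the array, 16 fell, 1 rose and 15 missed the threshold, with a median of −0.87. The mean level of the list was 5.99 to 6.20 on control cMoP arrays and 7.12 to 7.38 on control MDP arrays. Sox4, a transcription factor gene of early progenitors, was at 8.35, 8.36, 8.51 and 8.52 in control cMoPs, against 10.68, 10.87, 10.79 and 10.75 in control MDPs (difference −2.34, SE 0.160, adjusted p = 1.63e-07). The other probe set of Sox4 gave −1.93. Cd34, the surface glycoprotein gene of progenitors, averaged 10.1 ± 0.12 and 10.86 ± 0.08 (difference −0.77, SE 0.151, adjusted p = 0.00495). Neither gene showed overlap between the populations. The lower genes also held the transcription factor genes Ikzf2 (−1.96), Gata2 (−1.74), Meis1 (−1.60), Hoxa9 (−1.50), Erg (−1.20) and Tal1 (−0.84), which act in stem and early progenitor cells. Cd63, a tetraspanin gene of lysosomes and granules, was the 1 member that rose (1.13). The call of Meis1 ended without control cMoP replicate 2 or control MDP replicates 1, 2 or 3 (adjusted p at most 0.0978).

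Several lymphoid genes fell. Of 20 measured, 5 were lower and 0 higher, with a median of −0.28, and 9 had means below the array medians in both populations. Besides Dntt and Il7r these were Rag2, a subunit of the recombinase of antigen receptor genes (−2.34), the chromatin organiser Satb1 (−1.27) and the receptor Notch1 (−1.21). Satb1 was at 6.24, 6.29, 6.5 and 6.25 in control cMoPs, against 7.42, 7.71, 7.50 and 7.71 in control MDPs (SE 0.118, adjusted p = 3.96e-06). Its arrays lay in 2 tight groups. Cd79b, a signalling chain gene of the B cell receptor, averaged 7.90 ± 0.44 in control cMoPs and 6.82 ± 0.34 in control MDPs without overlap, and did not pass (difference 1.08, SE 0.328, adjusted p = 0.0748). Rag2 varied more, with control MDP values of 6.29, 5.56, 3.82 and 4.40 and control cMoP values of 2.08 to 3.17.

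Some dendritic cell genes fell too, with 7 of 31 lower, 1 higher (25.8% called, against 4.56% of all genes) and a median of −0.21. Siglech, a receptor gene of plasmacytoid dendritic cells, was at 3.53, 4.13, 3.62 and 3.77 in control cMoPs, against 6.28, 7.62, 5.83 and 4.74 in control MDPs (difference −2.36, SE 0.394, adjusted p = 0.00142). Itgax, which encodes CD11c, averaged 3.69 ± 0.32 and 5.75 ± 0.36 (difference −2.06, SE 0.254, adjusted p = 7.81e-05), and Cox6a2 was 1.94 lower. Naaa, an acid amidase gene, was the exception at 1.42 higher. Of 10 MHC class II genes, which present antigen on dendritic cells, H2-Aa (−2.29), H2-Ab1 (−1.71) and H2-Ob (−1.15) were lower and 7 did not pass, with a median of −0.40. The share of class II genes called was 30.0%, against 4.56% of all genes. H2-Aa was at 3.52, 3.46, 3.02 and 3.12 in control cMoPs, against 6.74, 7.42, 3.73 and 4.39 in control MDPs, so replicates 1 and 2 of the MDPs stood well above 3 and 4. The count of lower class II genes was 1 without control cMoP replicates 1 or 3 or control MDP replicate 1. The call of H2-Aa itself ended in 6 of the 8 leave-one-out fits (adjusted p at most 0.115), that of H2-Ab1 without control cMoP replicate 3 or control MDP replicate 1 (at most 0.0592) and that of H2-Ob without control cMoP replicate 1 (0.0568).

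**Figure D3:**
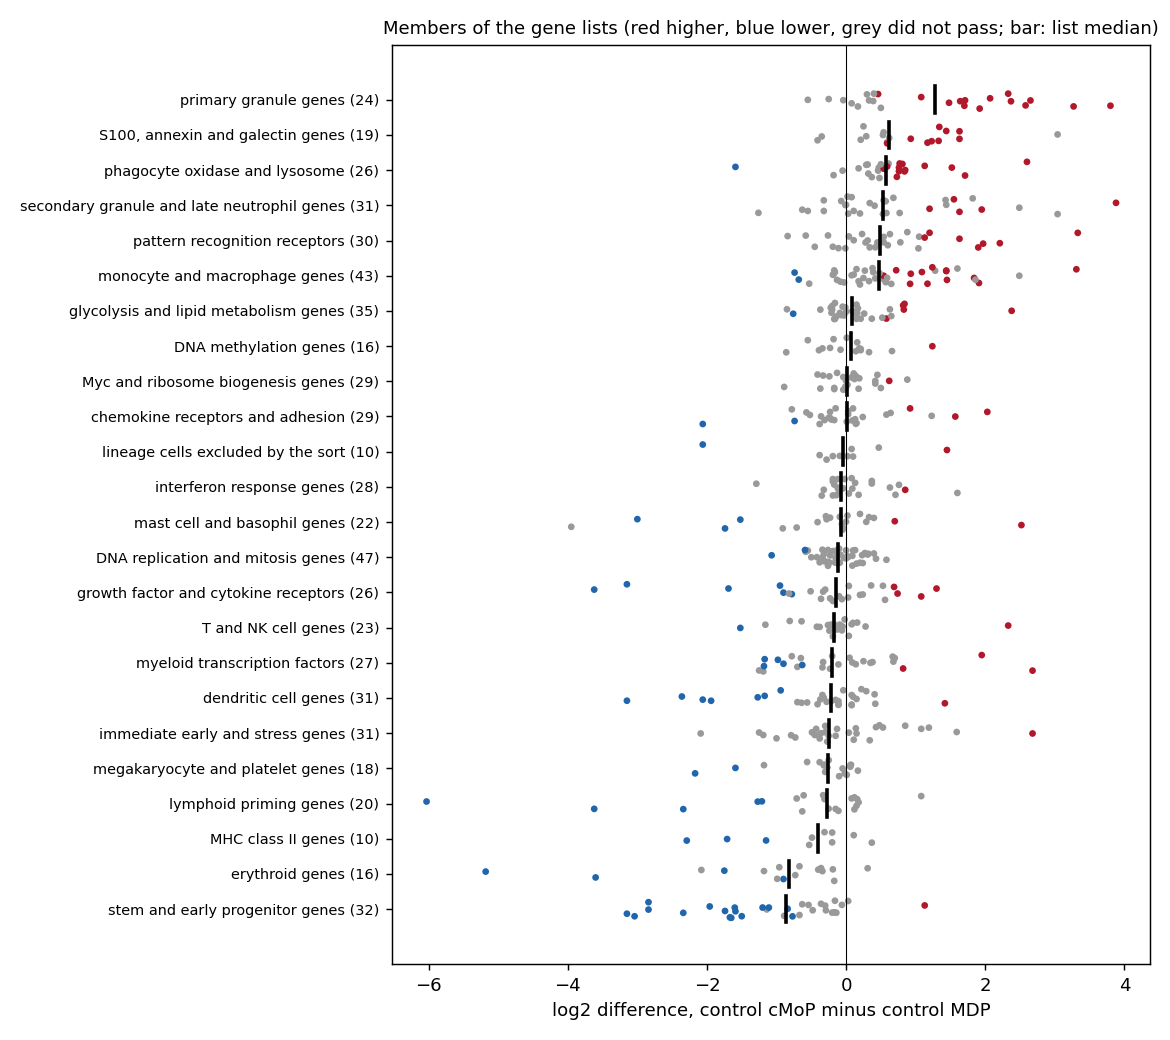
Differences (horizontal axis, log2 scale, control cMoP minus control MDP) of the members of 24 gene lists, 1 point per measured gene, with the number measured in brackets and the list median as a black bar. Lists run from the highest to the lowest median, from 1.28 for primary granule genes to −0.87 for stem and early progenitor genes; red points are higher, blue lower and grey did not pass.

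Primary granules are the protease-rich granules that myeloid progenitors make first. Their gene list had the largest share of higher members among the 24 lists plotted, at 58.3% against 2.84% of all genes. Lists and members were chosen with earlier results of these data known, so this rank is a description. Of 24 on the array, 14 rose, 0 fell and 10 missed the threshold, with a median of 1.28 and a mean level of 9.01 to 9.16 on control cMoP arrays against 7.74 to 8.04 on control MDP arrays. Elane, the neutrophil elastase gene, was at 12.07, 12.07, 12.09 and 12.11 in control cMoPs, against 9.73, 10.16, 9.44 and 9.53 in control MDPs (difference 2.37, SE 0.142, adjusted p = 9.57e-08). The cMoP arrays lay close together at that level, where the maxima of these arrays were 12.96 to 13.33. Ms4a3, a membrane protein gene of granulocyte and monocyte progenitors, averaged 10.98 ± 0.02 in control cMoPs and 8.33 ± 0.52 in control MDPs, where it was at 8.93, 8.60, 8.00 and 7.80 (difference 2.65, SE 0.189, adjusted p = 2.49e-07). Prtn3, which encodes proteinase 3, averaged 11.87 ± 0.04 and 10.8 ± 0.09 (2.11-fold, adjusted p = 1.00e-05).

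Other members of the primary granule list that rose were Hp, haptoglobin (2.58), the granule membrane gene Nkg7 (2.33) and Prss57 (1.48). Ctsc, the protease that activates granule proteases (1.71), and Gstm1 (1.70) rose too. Not every member of the list, Gstm1 for one, encodes a granule protein. Ctsg, cathepsin G, rose by 0.46, a call that ended in 5 of the 8 leave-one-out fits (adjusted p at most 0.109). Mpo, the myeloperoxidase gene, was at 11.71, 11.77, 11.87 and 11.92 in control cMoPs, against 11.58, 11.66, 11.63 and 11.71 in control MDPs (difference 0.17, SE 0.109, adjusted p = 0.505). Thus Mpo was high on every array of both populations, and the control cMoP arrays reached from the highest control MDP value upwards.

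Elane and Prtn3 are neighbours on chromosome 10 and Mpo lies on chromosome 11. Their promoter windows from RefSeq (GRCm38.p6), 250 bases before to 50 bases after the gene start, are shown because all 3 hold the PU.1 motif GAGGAAGT, in capitals, and differ in whether the transcript rose. The 3 genes were chosen after their values were seen. The motif begins 85 bases before the start of Elane (chr10:79886062-79886361, plus strand), 95 before that of Prtn3 (chr10:79879417-79879716, plus strand) and 224 before that of Mpo (chr11:87793534-87793833, plus strand).
Elane: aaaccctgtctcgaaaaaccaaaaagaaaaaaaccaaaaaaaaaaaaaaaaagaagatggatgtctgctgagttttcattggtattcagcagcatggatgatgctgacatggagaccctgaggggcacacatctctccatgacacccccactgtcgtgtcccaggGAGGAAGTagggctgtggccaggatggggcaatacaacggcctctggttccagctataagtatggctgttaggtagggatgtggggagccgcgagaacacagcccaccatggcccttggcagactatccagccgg
Prtn3: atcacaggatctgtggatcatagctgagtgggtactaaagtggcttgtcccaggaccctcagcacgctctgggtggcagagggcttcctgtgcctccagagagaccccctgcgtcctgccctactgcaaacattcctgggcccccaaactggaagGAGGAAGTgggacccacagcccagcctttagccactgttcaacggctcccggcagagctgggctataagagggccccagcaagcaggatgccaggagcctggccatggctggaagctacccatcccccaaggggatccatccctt
Mpo: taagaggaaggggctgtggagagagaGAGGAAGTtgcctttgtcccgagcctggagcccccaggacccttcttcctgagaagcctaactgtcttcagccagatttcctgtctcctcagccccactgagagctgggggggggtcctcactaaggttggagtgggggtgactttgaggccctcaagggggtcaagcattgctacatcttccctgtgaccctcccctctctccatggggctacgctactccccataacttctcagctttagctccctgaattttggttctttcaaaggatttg
The match says nothing about binding. Across all 16990 measured genes with a window, GAGGAAGT was found on either strand in 3.44%, in 5.38% of the 502 higher genes with one and in 4.56% of the 285 lower genes. The C/EBP half-site pair TTGCNNAA was in 11.7% of all, 15.5% of the higher and 8.42% of the lower windows, and the GATA motif AGATAA in 11.2%, 7.17% and 10.5%. The RUNX motif TGTGGT was in 16.6%, 16.1% and 19.3%, and the composite ETS and IRF motif, a joint site of PU.1 and IRF8, in 3.04%, 2.59% and 2.81%. These shares describe the windows and were not tested.

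Genes of secondary granules and late neutrophils did not move as a block. The share called was 16.1%, against 4.56% of all genes. Of 31 measured, 5 were higher and 0 lower with a median of 0.53: Mcemp1, Cebpe, Anxa1 (annexin A1, 1.63), Ltb4r1 (a leukotriene receptor, 1.55) and Lta4h (a leukotriene hydrolase, 1.20). The call of Ltb4r1 ended without control cMoP replicates 1 or 4 or control MDP replicate 4 (adjusted p at most 0.0822). None of the neutrophil markers Ltf (−0.32), Camp (1.44), Ngp (−0.63), Lcn2 (1.43) and S100a8 (3.04) passed, and their values were uneven within groups. S100a8, a calcium-binding protein gene of neutrophils and monocytes, was at 10.28, 10.79, 9.58 and 9.59 in control cMoPs, against 9.65, 10.46, 5.08 and 2.88 in control MDPs (SE 1.18, adjusted p = 0.188). S100a9, its partner, was at 8.65, 8.62, 6.5 and 6.25 in control cMoPs, against 9.15, 9.47, 4.65 and 4.60 in control MDPs. In both populations replicates 1 and 2 of S100a9 were higher than 3 and 4. Camp, a granule antimicrobial peptide gene, was at 6.47, 6.87, 3.48 and 4.67 in control cMoPs, against 2.63, 7.74, 2.72 and 2.64 in control MDPs, where replicate 2 alone was high. Ngp, at 7.06 in control MDP replicate 2 and 2.96 to 3.85 in the other MDPs, and Chil3, at 7.13 against 1.56 to 3.38, were high in the same array. The mean level of the list was 5.18 to 5.68 on control cMoP arrays and 4.10 to 5.37 on control MDP arrays. It overlaps between the groups, unlike that of the primary granule list. Without the second arrays of both populations, 14 of the primary granule genes and 6 of the late neutrophil genes were higher.

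**Figure D4:**
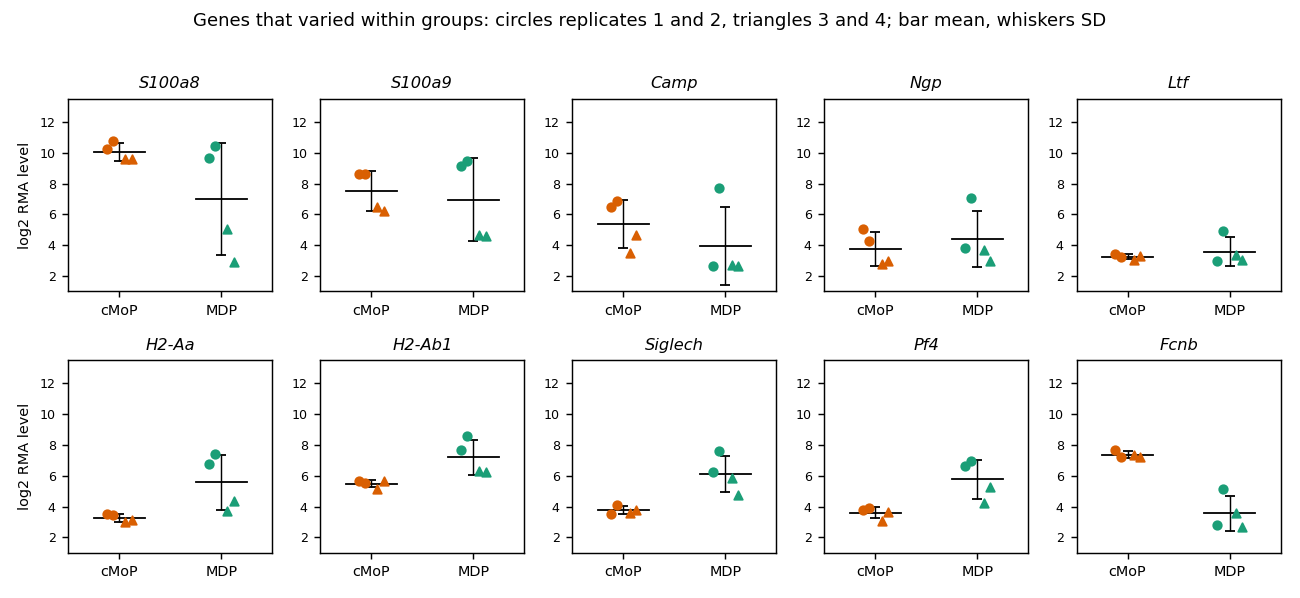
Log2 levels of 10 genes that varied within a group of control arrays, with cMoPs left and MDPs right in each panel. Circles are replicates 1 and 2, triangles replicates 3 and 4, the bar is the mean and the whiskers the SD of 4 arrays. S100a8 in MDPs runs from 2.88 to 10.46, and H2-Aa and H2-Ab1 are highest in MDP replicates 1 and 2.

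Monocyte and macrophage genes rose in part. Of 43 measured, 13 were higher, among them the gated Ly6c2, and 2 lower, with a median of 0.48 and a mean level of 7.07 to 7.24 on control cMoP arrays against 6.30 to 6.67 on control MDP arrays. Gpr141 was at 7.38, 7.39, 7.16 and 7.12 in control cMoPs, against 4.54, 3.60, 4.15 and 3.53 in control MDPs (SE 0.217, adjusted p = 1.63e-07). Lyz2, the lysozyme gene of macrophages, averaged 10.54 ± 0.14 and 9.62 ± 0.17 (difference 0.92, SE 0.150, adjusted p = 0.00113). Both showed no overlap. F13a1, the coagulation factor XIII subunit of monocytes, was 0.54 higher (SE 0.127), a call that ended without control cMoP replicate 1 or control MDP replicate 4 (adjusted p at most 0.0694). Fcgr3, a low-affinity IgG receptor gene, was 1.91 higher and lay beside Fcgr2b (0.98) and Fcgr4 (0.72), close paralogs whose probes may share signal. Fcgr4 had means below the array medians in both populations and failed to pass in 7 of the 8 leave-one-out fits (adjusted p at most 0.133). Adgre1, a marker gene of mature macrophages, was 1.45 higher, a call that ended in 5 of the 8 leave-one-out fits (adjusted p at most 0.126). Cx3cr1, the fractalkine receptor gene that marks MDPs, was lower: 6.70, 6.91, 7.46 and 6.96 in control cMoPs, against 7.71, 7.55, 7.70 and 8.04 in control MDPs. Its difference of −0.74 (SE 0.185, adjusted p = 0.0261) kept its call in only 3 of the 8 leave-one-out fits and that of Tmem176b (−0.68) in 1, with adjusted p at most 0.101 and 0.104. No monocyte gene was called lower without control cMoP replicates 1, 2 or 4 or control MDP replicates 3 or 4.

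Receptors that sense microbes rose where they changed. Of 30 measured, 7 were higher and 0 lower (23.3% called, against 4.56% of all genes), with a median of 0.49. After Clec5a came Naip5, an intracellular sensor of flagellin (2.21), the beta-glucan receptor Clec7a (1.97), the lipopeptide receptor Tlr1 (1.90), the lipopolysaccharide receptor Tlr4 (1.63), the RNA sensor Tlr8 (1.20) and Tlr6 (1.13). Clec7a averaged 6.36 ± 0.22 in control cMoPs and 4.39 ± 0.45 in control MDPs (adjusted p = 5.03e-05), and Tlr4 5.43 ± 0.36 and 3.80 ± 0.22 (adjusted p = 7.92e-05). No control MDP array reached a control cMoP array for either gene. Tlr2 was 1.05 higher (SE 0.301) and did not pass (adjusted p = 0.0586), and the calls of Tlr6 and Tlr8 ended in 7 and 6 of the 8 leave-one-out fits (adjusted p at most 0.112 and 0.150).

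Of 26 genes of the phagocyte oxidase and the lysosome, 13 were higher, 1 was lower and 12 did not pass, with a median of 0.57. Those that did not pass include the oxidase genes Cyba, Ncf1 and Rac2 and the protease genes Ctsl, Ctss and Ctsz. Cybb, the catalytic subunit of the oxidase that makes superoxide, was at 8.99, 9.65, 9.21 and 9.03 in control cMoPs, against 6.30, 6.34, 6.85 and 6.99 in control MDPs (difference 2.60, SE 0.239, adjusted p = 3.42e-06). The lysosomal proteases Ctsc and Ctsh were 1.71 and 1.52 higher, and 10 further members rose by 0.54 to 1.13. Lgmn, the asparaginyl protease of the same compartment, was lower at 3.94 ± 0.51 against 5.54 ± 0.30 (difference −1.59, SE 0.319, adjusted p = 0.00586). The count of higher genes was 8 without control cMoP replicates 1 or 4 or without control MDP replicate 3.

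S100, annexin and galectin genes, whose products bind calcium or sugars, rose in 9 of 19 cases and fell in 0, with a median of 0.62. They included Anxa1, Lgals3 (galectin 3, 1.44), S100a4 (1.34) and S100a6 (1.63). S100a6 was at 6.05 in control MDP replicate 3 and 8.19 to 8.61 in the other control MDPs, and its call ended without control cMoP replicates 1, 3 or 4 (adjusted p at most 0.0718). Of 29 genes of chemokine receptors and adhesion, 3 were higher and 2 lower (median 0.01). The integrin genes moved apart, with Itga1 2.03 and Itgb2 1.57 higher and Itgax lower. In the leave-one-out fits Itgb2 failed to pass in 4 of 8 (adjusted p at most 0.0729) and Itga5 (0.92) in 5 (at most 0.0871). The count of higher genes was 1 without control cMoP replicates 1, 3 or 4, and the count of lower genes 1 without control cMoP replicates 1 or 4 or control MDP replicates 3 or 4.

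Genes of the erythroid, megakaryocyte and mast cell lineages were lower in control cMoPs where they moved, apart from 2 mast cell genes. Of 16 erythroid genes, Car1, Car2, Aqp1 (a water channel, −1.75) and Epor were lower and 0 higher (median −0.82), and Klf1, the erythroid master regulator, did not pass (−0.67, SE 0.443). The mean level of the list was 3.85 to 3.96 on control cMoP arrays, against 4.79 to 5.39 on control MDP arrays. Aqp1 and Epor each failed to pass in 7 of the 8 leave-one-out fits (adjusted p at most 0.0998 and 0.139), so the count was 3 without control MDP replicates 1 or 4 and 2 without any other control array. Of 18 megakaryocyte genes, Pf4, platelet factor 4, and Plek, pleckstrin, were lower (−2.17 and −1.59, median −0.26). Of the megakaryocyte list 11.1% was thus called, against 4.56% of all genes. Pf4 was at 3.81, 3.91, 3.10 and 3.66 in control cMoPs, against 6.64, 6.97, 4.24 and 5.30 in control MDPs. The platelet gene Gp5 had means below the array medians in both populations.

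Of 22 mast cell and basophil genes, 2 were higher and 3 lower (22.7% called, against 4.56% of all genes, median −0.07). Hdc, the enzyme that makes histamine, was at 8.12, 7.73, 8.06 and 7.97 in control cMoPs, against 5.66, 5.63, 5.29 and 5.23 in control MDPs (difference 2.52, SE 0.269, adjusted p = 1.55e-05). Cpa3 was at 2.80, 3.07, 3.15 and 3.53 in control cMoPs, against 5.19, 7.28, 6.02 and 6.04 in control MDPs (difference −3.0, SE 0.368, adjusted p = 7.49e-05). Genes of one list thus differed in opposite directions between the same arrays. Gata2 and the granzyme gene Gzmb (−1.52) were lower, Mitf was 0.70 higher, and Mcpt8, a basophil protease gene, was at 8.26 to 8.81 in control cMoPs and 8.02 to 8.74 in control MDPs. The call of Gzmb ended without control cMoP replicate 4 (adjusted p = 0.0511), and that of Mitf without that array or control MDP replicate 3 (at most 0.0723). Without the second arrays of both populations 1 mast cell gene was higher, 1 was lower, and 1 megakaryocyte gene was lower. Prg2, an eosinophil granule protein gene, was at 3.23, 3.42, 2.43 and 3.02 in control cMoPs, against 8.90, 8.02, 3.61 and 7.39 in control MDPs, and did not pass (difference −3.95, SE 1.26, adjusted p = 0.0932). In control MDP replicate 3 it was near the cMoP level, while the other control MDPs were higher. Among 23 T and NK cell genes only Nkg7 and Gzmb were called (median −0.17). The part of cells of these lineages in the MDP samples was not tested.

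Several programmes showed shares of called genes near that of all genes (4.56%). Of 47 genes of DNA replication and mitosis, 2 were lower and 0 higher (median −0.12). Ccnd2, cyclin D2, averaged 8.85 ± 0.48 in control cMoPs and 9.92 ± 0.06 in control MDPs, a difference of −1.07 (SE 0.186, adjusted p = 0.00203). Cdkn1b, a cell cycle inhibitor gene, was 0.59 lower with a call that ended in 6 of the 8 leave-one-out fits (adjusted p at most 0.092). Mki67, the proliferation marker, was at 9.61 to 9.95 and 9.88 to 10.22 and did not pass. Of 29 Myc and ribosome biogenesis genes, Srm, spermidine synthase, was higher (0.62) and 28 did not pass (median 0.02), Myc itself among them (−0.33, SE 0.152). The count was 3 without control cMoP replicate 2 and 2 without control MDP replicate 1.

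Of 28 interferon response genes only Ifi35 was called (0.85, median −0.07), and that call ended in 7 of the 8 leave-one-out fits (adjusted p at most 0.0834). Of 31 immediate early and stress genes only Klf4 was called, and the mean level of that list ranged from 5.62 to 7.68 in control cMoPs and 6.15 to 7.37 in control MDPs. Ccl4, a chemokine gene of the list, was at 9.78, 9.93, 4.23 and 8.89 in control cMoPs, against 10.56, 10.69, 9.67 and 10.28 in control MDPs, with control cMoP replicate 3 far below the others. Of 16 genes of DNA methylation, Apobec1, a cytidine deaminase gene, was higher (1.24) and 15 did not pass (median 0.07). Among 35 genes of glycolysis and lipid metabolism, 5 were higher and 1 lower (17.1% called, against 4.56% of all genes, median 0.09). Lpl, lipoprotein lipase, was 2.38 higher (SE 0.303, adjusted p = 1.04e-04) with control cMoP values of 6.12, 5.87, 7.74 and 7.14, against 4.21 to 4.57 in control MDPs. Pfkp was 0.82, Plin2 0.83 and Pparg 0.84 higher and Srebf2, the regulator of cholesterol synthesis, 0.76 lower. Plin2 failed to pass in 3 of the 8 leave-one-out fits, Pparg in 5 and Srebf2 in 6 (adjusted p at most 0.0729, 0.0917 and 0.115), and 3 members were higher without control cMoP replicates 1, 3 or 4.

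Called genes also stood side by side in the genome. Along the gene order of RefSeq (GRCm38.p6), with 18987 measured protein-coding genes placed, 82 of the 611 higher genes placed lay in 38 runs of neighbours that were all higher, and 39 of the 363 lower genes in 18 runs. Runs of 3 or more numbered 8, and the genes in them were picked out after their values were seen. The longest held Tlr1, Tlr6, Fam114a1 and Tmem156 on chromosome 5 (1.90, 1.13, 0.85 and 0.87). Clusters of paralogs with 3 members were Naip2, Naip5 and Naip6 on chromosome 13 (2.98, 2.21 and 1.74), the Fcgr genes on chromosome 1 and the Ly6 genes on chromosome 15. In the Ly6 run, Ly6c1 and Ly6c2 restate the gate. How far the probes of paralogs in these runs share signal was not tested. Neighbouring class II genes fell on chromosome 17, and the adhesion receptor genes Adgrg1 and Adgrg3 with Drc7 on chromosome 8 (−3.04, −0.70 and −1.78). The remaining runs of 3 were Rbms1, Tank and Psmd14 on chromosome 2, all higher, and Srebf2, Shisa8 and Tnfrsf13c on chromosome 15, all lower. In the leave-one-out fits Tlr6 and Fcgr4 failed to pass in 7 of 8, H2-Aa, Srebf2 and Rbms1 in 6 and Adgrg3 in 5. Fam114a1 and H2-Ab1 failed in 2 and H2-Ob and Tank in 1 (adjusted p at most 0.133 among all of these). How many runs 611 higher and 363 lower genes among 18987 would form in a random gene order was not tested.

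In c/chip mice the same cMoP minus MDP difference was measured on separate arrays, with 399 genes higher and 331 lower (1.8% and 1.49%, 3.29% in all). In both genotypes 222 genes were higher, which is 55.6% of those of c/chip mice and 35.2% of those of control mice. The genes lower in both numbered 111, or 33.5% and 29.2%. A further 3 genes had opposite calls: Emilin2 (−0.69 in c/chip, 0.73 in control), Srm (−0.48 and 0.62) and Vat1 (−0.83 and 0.86), whose control call ended in 4 of the 8 leave-one-out fits (adjusted p at most 0.103). Of the 631 genes higher in control cMoPs, 585 had a positive difference in c/chip mice, and of the 380 lower genes 347 a negative one. The medians there were 0.56 and −0.45, but the genes had been chosen by the control values, so these smaller sizes are a description. The fits share 1 estimate of the spread per gene.

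The difference itself differed between genotypes for 13 genes (interaction in limma, adjusted p under 0.05, 0.0586% of all genes, 1890 at an unadjusted p under 0.05), of which 12 were called in control mice. The difference of Elane was smaller in c/chip mice, at 0.79 against 2.37 in control mice (difference of differences −1.58, adjusted p = 0.00416). The differences of Ms4a3 (0.68 against 2.65, −1.97, adjusted p = 0.00667) and Nkg7 (0.59 against 2.33, −1.75, adjusted p = 0.00416) were also smaller there and did not pass by themselves. Dntt differed by −1.41 in c/chip mice, which did not pass, against −6.03 in control mice (4.61, adjusted p = 0.00416). Its cMoP values lay below the array medians, so both differences are lower limits. Elane averaged 12.18 ± 0.09 in c/chip cMoPs and 11.40 ± 0.10 in c/chip MDPs, against 12.08 and 9.72 in control cMoPs and MDPs. In the same order Ms4a3 averaged 11.08 and 10.40, against 10.98 and 8.33, and Nkg7 10.82 and 10.24, against 10.57 and 8.24. Dntt averaged 2.84 ± 0.24 in c/chip cMoPs and 4.25 ± 1.03 in c/chip MDPs, against 2.91 and 8.94 in control mice. Cmah (−0.32 against −2.88), Cd300c (0.18 against −1.64), Hdc (0.13 against 2.52), Srm and Emilin2 passed too. Leaving out any 1 of the 16 arrays ended the call of Cmah in 4 fits, of Cd300c in 4, of Hdc in 6, of Srm in 8 and of Emilin2 in 4, at adjusted p of at most 0.0797. Gp5, Gstm1, Gsr and Gm1604b complete the 13. Gp5, whose control means lie below the array medians, kept its call in all 16 fits, and Gstm1, Gsr and Gm1604b were without theirs in 10, 13 and 12. The count was 5 to 8 without control cMoP replicates 1 or 4 or c/chip cMoP replicates 1, 2 or 4, and 33 and 26 without c/chip MDP replicates 3 or 4. The interaction of Klf4 (0.30), Cybb (−0.93), Flt3 (0.76) and Sox4 (0.95) did not pass (adjusted p = 0.88, 0.45, 0.55 and 0.18).

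**Figure D5:**
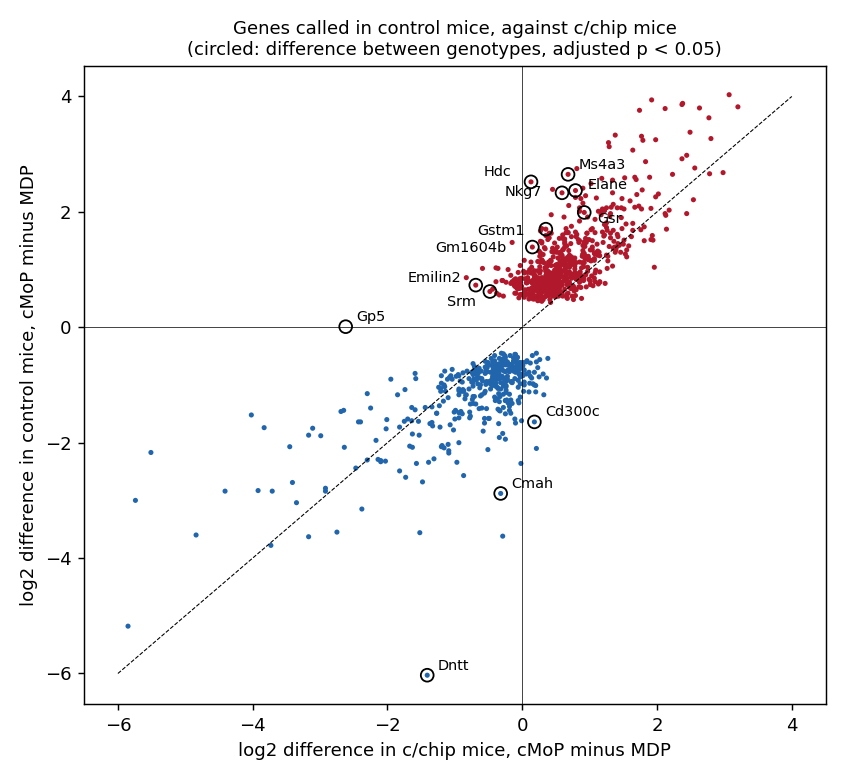
The cMoP minus MDP difference in control mice (vertical axis) against that in c/chip mice (horizontal axis), both on the log2 scale, for the 1011 genes called in control mice, red higher and blue lower. The dashed line marks equal differences, and circles mark the 13 genes whose difference itself differed between genotypes; Dntt, Elane and Ms4a3 lie far from the line, and Gp5 is circled although it was not called in control mice.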

How the data were processed

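The deposited series matrix holds log2 expression levels, 1 per probe set and array, which the authors made with affy, RMA and limma, per the submitters' processing notes. Versions, settings and genome build: not given in the sources used here. The log2 values were used as deposited, without detection calls. A second deposited table, whose 16 value columns match no sample label, was not used. Of 41345 probe sets, 23521 had 1 gene symbol, 1820 several and 16004 none in the platform annotation. That annotation lists numeric transcript clusters, whereas the design text names another Affymetrix mouse array. For 1082 genes with several probe sets the brightest over all 16 arrays was used. By Entrez identifier, 23328 of those with 1 symbol matched RefSeq, and 0 symbols changed.

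One limma model (limma 3.58.1, R 4.3.3) of 4 group means was fitted to 16 arrays without a filter (12 residual and 4.72 prior degrees of freedom), with Benjamini-Hochberg adjustment over 22180 genes and a threshold of 0.05. Differences are control cMoP minus control MDP with moderated standard errors (SE). Sort markers and Dnmt1 also had exact permutation tests over 70 arrangements. Of the 8 control arrays, 4 make each group, and their number limits the precision. Named genes were the sort markers, Dnmt1, the 15 largest non-overlapping differences per direction among genes past the threshold and not predicted or clone-named transcripts, small RNAs or antigen receptor segments, up to 4 called members of each of 26 gene lists per direction, all members of the factor and receptor lists, and up to 6 interaction genes. Further genes were named after their values were seen: defining markers of cell types, neighbours of called genes and members of the granule, monocyte and sensor lists. Some list members outside the 4 largest and the further interaction genes were also named after their values were seen. The members and lists were chosen with earlier results of these data known. On simulated data for this comparison with 200 of 22180 genes changed, 8% of genes changed by 0.5 were recovered, 72% by 1, 98% by 2 and 100% by 3, with 149 calls, 10 of them unchanged genes. Same-numbered cMoP and MDP arrays were checked for pairing. Their deviations correlated with 0.121, 0.045, 0.049 and 0.076. Differently numbered arrays within replicates 1 and 2 or within 3 and 4 correlated with 0.011 to 0.108, and arrays across these sets with −0.123 to 0.007. The numbers were not taken to pair samples, but correlations this small cannot decide whether they do. Alternatives were other probe set rules, a filter on low values, normalizations, variance models, array weights, subsets of arrays, a 2-fold minimum, a replicate block and the 2 sets of replicates as a term.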

Additional observations from a re-analysis of the deposited data

Results flagged for a closer look

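Of 330 groups of 4 arrays examined, for 165 named genes, 19 had 1 array far from the other 3. Chance flags about 1 in 20 groups. In control cMoP replicate 2 these were Car2 (2.45, against 4.59 to 4.99 on the other control cMoP arrays), Meis1 (3.26, against 5.15 to 5.28), Csf2rb (4.28, against 5.27 to 5.36), Naaa (6.82, against 7.22 to 7.26), Anxa1 (8.53, against 9.11 to 9.20), Nkg7 (10.39, against 10.62 to 10.65), Cebpb (7.41, against 6.99 to 7.06), Gfi1 (6.15, against 5.77 to 5.82) and Csf2ra (7.92, against 7.53 to 7.59). The array also stood apart on the second principal component. Csf1r was at 9.41 in control cMoP replicate 3, against 9.15 to 9.17. Among the control MDPs, replicate 2 had Aoah at 4.48 (others 3.16 to 3.20), Gzmb at 5.34 (others 3.96 to 4.17) and Camp at 7.74 (others 2.63 to 2.72). Replicate 3 had S100a6 at 6.05 (others 8.19 to 8.61), Cebpd at 5.70 (others 6.15 to 6.24) and Tank at 6.11 (others 6.27 to 6.30), replicate 1 had Fcgr3 at 4.05 (others 2.50 to 2.72), and replicate 4 had Kit at 9.31 (others 9.07 to 9.10) and Meis1 at 5.41 (others 6.55 to 6.75).

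The cMoP minus MDP difference was tested between genotypes, and the c/chip minus the control difference passed for Dntt (4.61), Cmah (2.56), Cd300c (1.82), Hdc (−2.39), Ms4a3 (−1.97), Nkg7 (−1.75), Elane (−1.58), Emilin2 (−1.42), Gstm1 (−1.35), Gm1604b (−1.25), Srm (−1.09) and Gsr (−1.07). The control cMoP and control MDP arrays enter each of these values.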

How the results depend on the processing

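The 134 called genes run under the 22 alternatives kept their direction, and 35 of them lost their call without 1 control array. Where the arrays of the 2 groups did not overlap, leaving out or weighting arrays cannot turn the sign. The kept direction is therefore no support for these calls. Of the 1011 called genes, 572 kept their call without each control array in turn, 371 higher and 201 lower. A 2-fold minimum gave 295 higher and 184 lower genes, replicates 1 and 2 alone 87 and 86, and replicates 3 and 4 alone 148 and 45, in fits with 2 arrays a group. Leaving out 1 control array gave 436 to 695 higher and 247 to 337 lower genes, with 247 lower without control cMoP replicate 1. The other alternatives gave 512 to 875 higher and 255 to 493 lower, the extremes with the 2 sets of replicates as a term, array weights and, for 255, without the second arrays of both groups, a setting chosen after seeing the data. The fit with the replicate block used the 8 control arrays alone and gave 346 and 237, of which 319 and 208 were among the main calls, against 520 and 316 for the same arrays without the block. The numbers were not taken to pair these samples, a question that the check for pairing could not decide. Of the 134 genes, 33 did not pass with the block, against 18 in the fit of 8 arrays without it. The interaction count, whose alternatives were all chosen after seeing the data, was 6 with every probe set tested and 5 to 33 without 1 array. Genes that never passed changed sign: Itgam (−0.18) and Cebpa (−0.16) within replicates 1 and 2, S100a9 (−0.67) too, and Ngp (0.09) and Ltf (0.13) without both second arrays. Without 1 control array Itgam ranged from −0.04 to 0.35, Fcgr1 from −0.08 to 0.25, S100a9 from −0.25 to 1.37, Ngp from −1.10 to 0.26 and Ltf from −0.53 to 0.13, the sign turning without control MDP replicate 3 (Itgam, and S100a9 at −0.23), 4 (S100a9), 1 (Fcgr1) or 2 (Ngp, Ltf). The cause was not tested. No detection calls were available, so changes between low levels are limited by background: 52 higher genes had control MDP means, and 73 lower genes control cMoP means, below the array medians.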
